A study of Mus musculus with 12 samples.

Results

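The comparison described here sets mouse skin taken 2 hours after a thermal injury against skin taken at 0 hours, across all genes measured. Its members are the 3 arrays titled as 2 hours and the 3 titled as 0 hours, 6 of the 12 arrays of a study that profiled total RNA from burnt murine skin at 0 hours, 2 hours, 3 days and 14 days after injury. Each time point has 3 arrays. The sources used here give no strain, sex, age or depth of burn, and do not say whether the 0 hours skin had been burnt just before it was excised or came from animals without a burn. They also do not say whether the repeats were separate animals, so the p-values measure the spread between arrays, which may in part be technical. That spread was estimated from all 12 arrays. The 3 days and 14 days arrays thus enter the p-values and standard errors unless another fit is named. Each array gave a signal (a brightness on a linear scale) for 7275 probe sets, of which 6551 name exactly 1 gene. After dim probe sets were left out and 1 probe set was kept per gene, 3477 genes were tested.

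A burn kills cells at the surface and heats the layers beneath it, and the surviving cells answer within minutes to hours. In that window the first genes to rise are usually those for transcription factors and for inhibitors of signalling, which need no new protein to be switched on, together with chaperones that hold damaged proteins. Skin contains epidermis, dermis, hair follicles, fat and a thin sheet of muscle, and a piece of skin gives the sum of all of them, so fewer cells of a type and less RNA per cell cannot be told apart.

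The 6 arrays had median signals between 448.4 and 480.6. Krt10, a keratin of the upper living epidermis, gave 24002, 27324 and 22418 at 2 hours and 21405, 26101 and 22103 at 0 hours, so the tissue read as skin at both times. The arrays at 2 hours were more alike (Spearman's rho across genes 0.915 to 0.932) than those at 0 hours (0.842 to 0.878). Markers of skeletal muscle averaged a log2 signal of 12.67, 12.53 and 12.44 on the 2 hours arrays and 13.54, 12.91 and 12.70 on the 0 hours arrays, without overlap. Hair follicle markers averaged 8.35, 8.38 and 8.30 at 2 hours and 8.47, 9.76 and 9.22 at 0 hours. The log2 ratio of the 3′ to the 5′ probe set of Gapdh, which grows as RNA is broken, was 1.05, 1.60 and 1.97 at 2 hours and 1.71, 1.98 and 2.28 at 0 hours. The same ratio for beta-actin ran the other way, at 0.17, 0.81 and 1.24 at 2 hours and -0.18, 0.24 and -0.03 at 0 hours. The effect on the calls of the muscle marker mean and of the Gapdh or actin ratio as a covariate is given by gene group; the part of hair follicle content was not tested.

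The skin at 2 hours differed from that at 0 hours in a minority of its genes. At 2 hours 139 genes were higher and 58 were lower than at 0 hours, 197 in all or 5.67% of the genes tested (4.0% up and 1.67% down). Every count of calls in a gene list is to be read beside these shares. A gene was called when limma's test gave a p-value under 0.05 after Benjamini-Hochberg adjustment over the 3477 genes; every adjusted p below is from that fit unless another is named, and every ± is its standard error, with n = 3 arrays a time. Of the called genes 82 rose and 26 fell by at least 2-fold. The median difference over all genes was 0.05 on the log2 scale, with 1898 genes higher and 1579 lower. At an unadjusted limma p under 0.05 there were 775 of the 3477 genes, 486 higher and 289 lower. Counts by list at that threshold are to be read beside these. The 3 arrays of one time did not overlap the 3 of the other for 814 genes, 23.4% of those tested, and for 196 of the 197 called; the chaperonin gene Hspd1 was the exception.

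Leaving out 1 array changed many of the calls and few of the differences. Left out in turn, 2 hours arrays 1, 2 and 3 ended 103, 103 and 128 of the 197 calls, and 0 hours arrays 1, 2 and 3 ended 90, 24 and 101. The total number of called genes was 101, 107 and 72 without 2 hours array 1, 2 or 3, and 144, 316 and 116 without 0 hours array 1, 2 or 3. All 197 genes kept their direction without any 1 array, and the log2 difference moved by over 1.5 times in 6 (Gadd45g, Gbp2, Pgd, Pnp, Tnni1 and Tnnt1). Of the 137 calls that were lost, 126 were lost without each of 2 or more arrays. The 60 genes whose call held without any 1 of the 6 arrays, 43 up and 17 down, are described most fully here and are called firm. In those fits the 3 days and 14 days arrays still entered the spread. A fit on only the 6 arrays called 63 genes, 59 of them among the 197. Firm genes named here that lost their call in it were Acly, Pdlim7, Rbmxl1, Emp1, Gbp2 and Nans.

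The covariates also moved calls more than differences. With the Gapdh ratio 99 of the 197 genes were still called, with the muscle marker mean 105, and with the actin ratio, a fit chosen after the data were seen, 10. The 10 were the chaperone genes Hspa1a, Hspa1b, Hsp90aa1 and Hsph1, the metallothioneins Mt1 and Mt2, Atf3, Plac8, Gbp2 and Pcyt2. All 197 kept their direction in each of these fits. The median log2 difference was 0.988, 0.973 and 0.905 times that without a covariate for the Gapdh ratio, the muscle mean and the actin ratio, and the median standard error was 1.15, 1.14 and 1.5 times as large. With the actin ratio 158 of the 197 had an unadjusted p under 0.05.

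A further probe set was present for 43 of the called genes. Of the 28 such probe sets that were above the floor on all 6 arrays, 26 differed in the same direction as the one used. In 6 of these the difference was under 0.5 times as large (Col1a2, Nsdhl, Qk, Rbpms, Tnnt1 and Vps26c), and in 2 genes, Rhoc and Dynll2, the direction was opposite; Rbpms, Vps26c and Dynll2 were named after their values were seen.

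**Figure D1:**
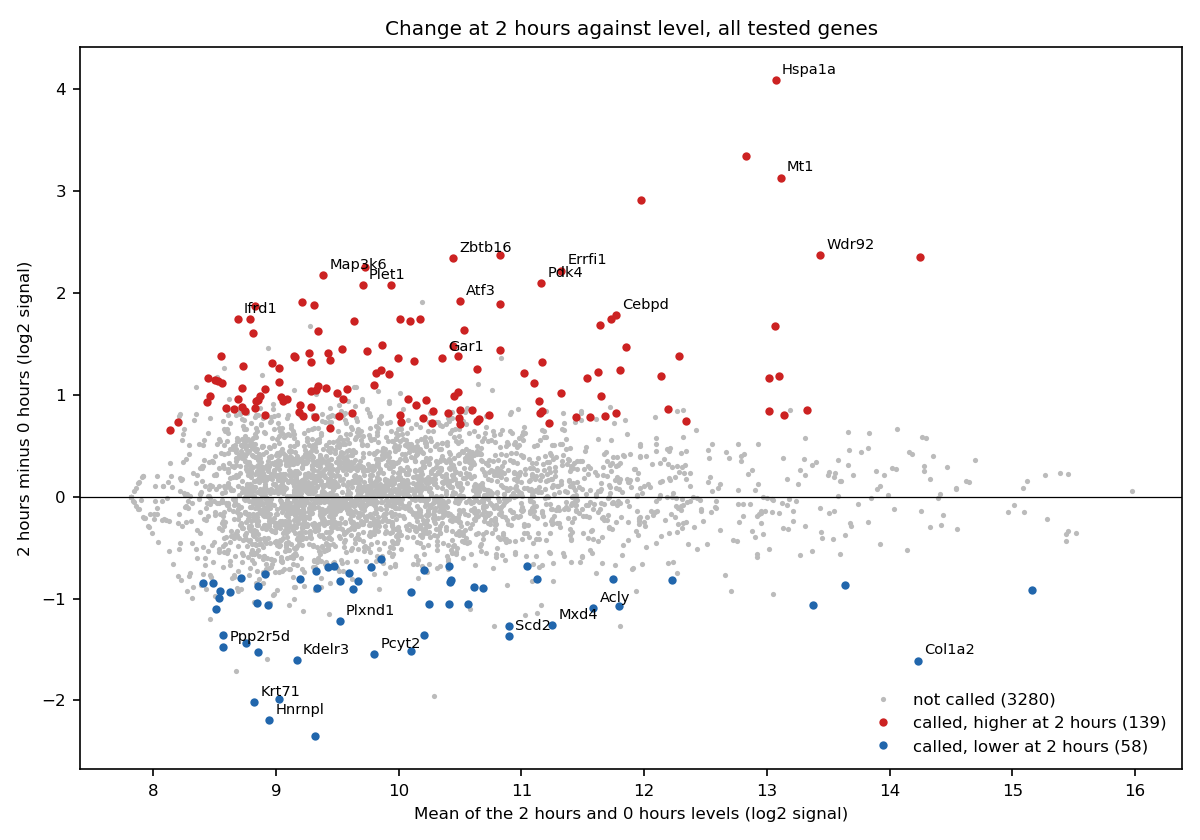
Each point is 1 of the 3477 tested genes, with the mean of its 2 hours and 0 hours log2 signals on the x axis and the 2 hours minus 0 hours log2 difference on the y axis. Red points are the 139 genes called higher at 2 hours and blue points the 58 called lower; rises reach 4.09 and falls reach -2.35.

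Transcription regulators were among the largest rises. The steepest of them was Zbtb16, a zinc-finger repressor also known as PLZF, which gave 2753, 2556 and 4372 at 2 hours and 829.8, 523 and 552 at 0 hours (log2 difference 2.33 ± 0.42, adjusted p = 0.00475), 5.05-fold higher at 2 hours. Atf3, a stress-induced factor of the AP-1 and ATF class, gave 3101, 4183 and 1708 at 2 hours and 1019, 601 and 673 at 0 hours (log2 difference 1.92 ± 0.32, adjusted p = 0.00285). Both genes were firm, with the lowest 2 hours array above the highest 0 hours array, and a further probe set for Atf3 differed by 1.58. Cebpd, a C/EBP factor of the acute inflammatory response, gave 5728, 6616 and 7140.2 at 2 hours and 3019.8, 1748 and 1264 at 0 hours (log2 difference 1.78 ± 0.28, adjusted p = 0.00215) and was also firm. The Myc antagonist Mxd4 went the other way, with signals of 2055, 1510.5 and 1255 at 2 hours and 3455, 4436 and 3499 at 0 hours (log2 difference -1.26 ± 0.20, adjusted p = 0.00266), and was the only firm fall among the 18 called genes of the transcription and chromatin lists.

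On the list named for AP-1 and ATF factors, 3 of 15 tested genes rose and none fell. The median of the 15 was 0.61 on the log2 scale against 0.05 for all genes. The list also holds factors of the PAR class, so neither value describes AP-1 and ATF factors alone. Of the 3 rises, Atf3 was the only one of the AP-1 and ATF class and the only firm one. The others were Dbp and Tef, both factors of the PAR class whose mRNA follows the daily clock. Dbp gave 872, 1377 and 443 at 2 hours and 208, 281 and 111 at 0 hours (log2 difference 1.74 ± 0.43, adjusted p = 0.0321); 2 of its 0 hours arrays lay under the floor of 225.4 to which low signals were raised, so that difference is a lower bound. Tef differed by 0.82 (adjusted p = 0.0328). Cry1, a repressor within the clock, gave 923, 731 and 903 at 2 hours and 457, 497 and 434 at 0 hours (log2 difference 0.88 ± 0.21, adjusted p = 0.0279). The hour of day at which skin was taken is not given in the sources used here, and its part in these 3 values was not tested. Dbp lost its call without 2 hours array 1 or 2 or 0 hours array 1 or 3 (adjusted p up to 0.127). Tef lost it without 2 hours array 1, 2 or 3 or 0 hours array 1 or 3 (adjusted p up to 0.0964). Cry1 lost it without 2 hours array 1 or 3 or 0 hours array 1 or 3 (adjusted p up to 0.11).

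Zinc-finger factors showed 3 rises and no fall among 17 tested (17.6% called, against 5.67% over all genes), with a median of 0.51. The other two rises were Klf6 and Klf10, early-response factors of the Krüppel-like family. Klf6 gave 2011, 2070.2 and 2047 at 2 hours and 1096, 1406 and 653 at 0 hours (log2 difference 1.03 ± 0.25, adjusted p = 0.0271), and the 2 hours values lay close together. Klf10 gave 1429, 1542 and 2092 at 2 hours and 738, 1029 and 839.7 at 0 hours (log2 difference 0.95 ± 0.21, adjusted p = 0.0171). Klf6 lost its call without 2 hours array 1, 2 or 3 or 0 hours array 3 (adjusted p up to 0.0943). Klf10 lost it without 2 hours array 3 or 0 hours array 1 (adjusted p up to 0.092).

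Smaller shifts were called in the remaining families. Among 12 nuclear receptors Nr4a1, an orphan receptor of the immediate early class, differed by 1.07 (adjusted p = 0.043) and Thra, a thyroid hormone receptor, by -0.72 (adjusted p = 0.0461). Bcl3, a nuclear partner of NF-kB, was the single call among 15 NF-kB, STAT and IRF factors (log2 difference 1.38 ± 0.35, adjusted p = 0.0362), with 2 of its 0 hours arrays under the floor. Ets2 was the single call among 26 patterning factors (log2 difference 0.84 ± 0.22, adjusted p = 0.0364). Of 47 genes of the general machinery, the elongation factor Tcea1 rose (log2 difference 0.82 ± 0.20, adjusted p = 0.0326) and the Mediator subunit Med24 fell (log2 difference -0.62 ± 0.17, adjusted p = 0.043). Of 38 chromatin genes, the histone chaperones Npm1 (log2 difference 0.78 ± 0.20, adjusted p = 0.0328) and Rbbp4 (log2 difference 0.67 ± 0.19, adjusted p = 0.0476) rose and Chd4, the helicase of the NuRD complex, fell.

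Chd4 gave 2167, 2362 and 2858 at 2 hours and 5255, 6794 and 3827 at 0 hours (log2 difference -1.07 ± 0.25, adjusted p = 0.0231), and the groups did not overlap. None of these 9 smaller shifts was firm. Nr4a1 lost its call without 2 hours array 1, 2 or 3 or 0 hours array 1, 2 or 3 (adjusted p up to 0.131). Thra lost it without 2 hours array 1, 2 or 3 or 0 hours array 1 or 3 (adjusted p up to 0.188). Bcl3 lost it without 2 hours array 2 or 3 or 0 hours array 1, 2 or 3 (adjusted p up to 0.133). Ets2 lost it without 2 hours array 1, 2 or 3 or 0 hours array 1 or 3 (adjusted p up to 0.141). Tcea1 lost it without 2 hours array 1 or 3 or 0 hours array 1 or 3 (adjusted p up to 0.14). Med24 lost it without 2 hours array 1, 2 or 3 or 0 hours array 1 or 3 (adjusted p up to 0.147). Npm1 lost it without 2 hours array 1, 2 or 3 or 0 hours array 1 or 3 (adjusted p up to 0.123). Rbbp4 lost it without 2 hours array 1, 2 or 3 or 0 hours array 1 or 3 (adjusted p up to 0.155). Chd4 lost it without 2 hours array 1, 2 or 3 or 0 hours array 1 or 2 (adjusted p up to 0.0821). Adding the Gapdh ratio to the fit ended 10 of the 18 transcription and chromatin calls, and adding the muscle marker mean ended 11. Zbtb16, Atf3, Cebpd, Mxd4, Dbp and Cry1 were called with either, and Atf3 was the only one of the 18 called with the actin ratio.

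**Figure D2:**
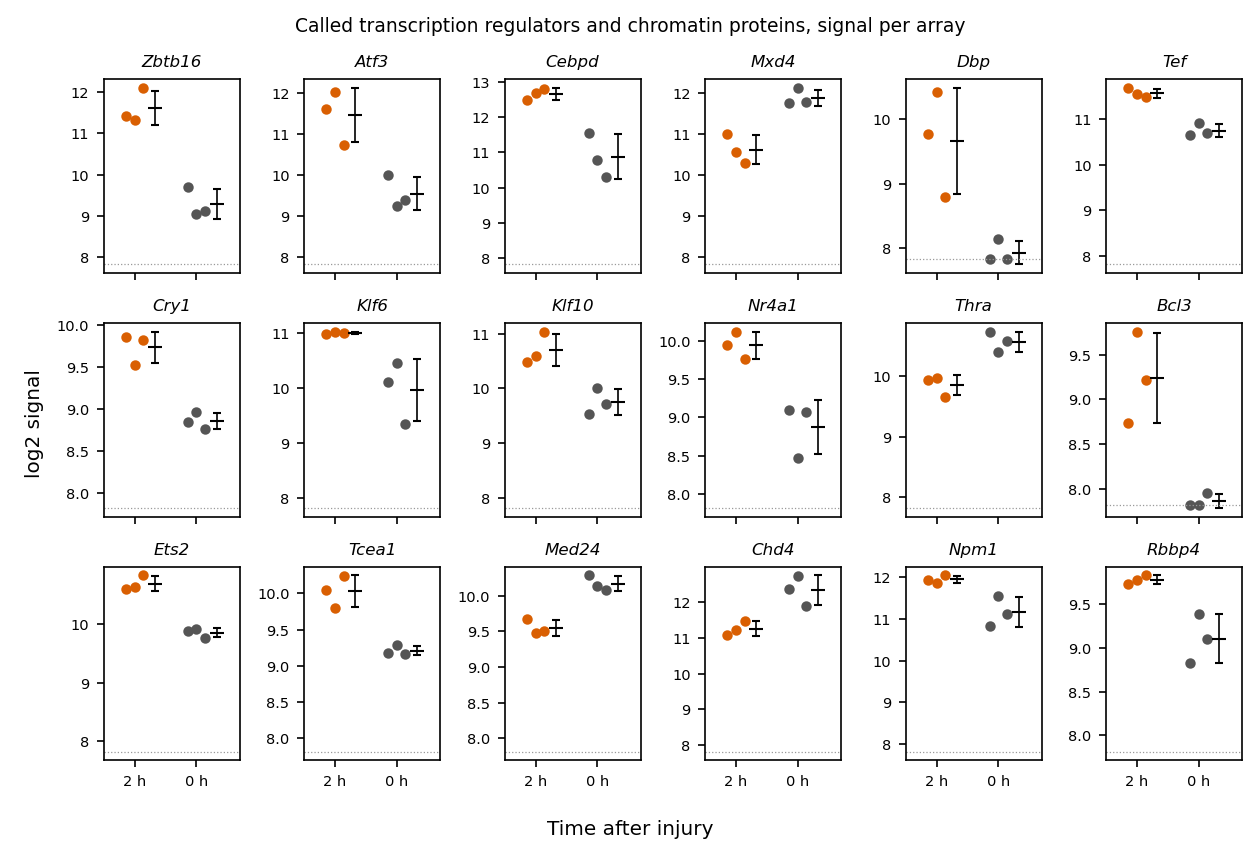
Log2 signal on each array (y axis) at 2 hours and at 0 hours (x axis) for the 18 called transcription and chromatin genes; dots are arrays, bars are the mean and SD of 3 arrays, and the dotted line is the floor. In all 18 panels the 2 times do not overlap, and Zbtb16, Atf3, Cebpd and Mxd4 are the firm calls.

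In signalling, the firm rises included an inhibitor, a kinase, a receptor and a phosphatase. Errfi1, an inhibitor that binds the EGF receptor, gave 5261, 5352 and 5973 at 2 hours and 1774, 1432 and 661 at 0 hours (log2 difference 2.22 ± 0.37, adjusted p = 0.00285), 4.64-fold higher at 2 hours, and its other probe set differed by 1.86. Map3k6, a MAP kinase kinase kinase, gave 1262, 1146 and 1978 at 2 hours and 446, 311 and 114 at 0 hours (log2 difference 2.17 ± 0.32, adjusted p = 0.00146), with 1 array at 0 hours under the floor. Both were firm and neither group overlapped the other. Osmr, the receptor chain for oncostatin M, gave 1308, 1565 and 1856 at 2 hours and 418, 734 and 559 at 0 hours (log2 difference 1.49 ± 0.25, adjusted p = 0.00285). Ptpn1, a tyrosine phosphatase that acts on insulin and cytokine receptors, gave 1604, 3013 and 2609.5 at 2 hours and 781, 981 and 767 at 0 hours (log2 difference 1.47 ± 0.27, adjusted p = 0.00543), and both of these calls were firm as well.

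Map3k6 was on none of the gene lists. Within the lists, 3 of 23 genes on the list of MAP kinases and their phosphatases rose and none fell (13.0% called, against 5.67% over all genes). They were Errfi1, the growth-arrest gene Gadd45g (log2 difference 1.34 ± 0.33, adjusted p = 0.0326) and Dusp6, a phosphatase of ERK (log2 difference 0.96 ± 0.24, adjusted p = 0.029). Gadd45g gave 1030.0, 1219.5 and 1074 at 2 hours and 795, 467 and 146 at 0 hours, and the 0 hours arrays were far apart. It lost its call without 2 hours array 1, 2 or 3 or 0 hours array 3 (adjusted p up to 0.0986), and its difference without 0 hours array 3 was 0.86, adjusted p = 0.0826. Dusp6 lost its call without 2 hours array 1 or 2 or 0 hours array 2 or 3 (adjusted p up to 0.107).

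Of 14 genes for EGF, FGF, PDGF and VEGF signalling, 3 rose and none fell (21.4% called, against 5.67% over all genes), with a median of 0.23. Kitl, the ligand of the Kit receptor on melanocytes and mast cells, gave 523, 498 and 599.9 at 2 hours and 236, 213 and 274 at 0 hours (log2 difference 1.14 ± 0.20, adjusted p = 0.00325). Vegfd, a growth factor for lymphatic vessels, gave 491, 536 and 649 at 2 hours and 257, 143 and 293 at 0 hours (log2 difference 1.11 ± 0.19, adjusted p = 0.00285). Both were firm, and in each 1 array at 0 hours lay under the floor. Pros1, an anticoagulant protein that is also a ligand of TAM receptors, differed by 0.96 (adjusted p = 0.0231) and lost its call without 2 hours array 1, 2 or 3 or 0 hours array 3 (adjusted p up to 0.0811).

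Among 34 cytokine receptor, JAK and SOCS genes Osmr and Socs3 rose and Socs5 fell, with a median of 0.28. Socs3, the feedback inhibitor of gp130 receptors, gave 1423, 3406 and 1387 at 2 hours and 778, 648 and 359 at 0 hours (log2 difference 1.74 ± 0.47, adjusted p = 0.0422), and 2 hours array 2 was the highest by more than 2-fold. Socs5 gave 218, 257 and 314 at 2 hours and 485, 376 and 784 at 0 hours (log2 difference -0.99 ± 0.25, adjusted p = 0.036). Socs3 lost its call without 2 hours array 1, 2 or 3 or 0 hours array 2 or 3 (adjusted p up to 0.16). Socs5 lost it without 2 hours array 1, 2 or 3 or 0 hours array 1 or 3 (adjusted p up to 0.115).

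Of 28 genes of insulin, PI3 kinase and growth control, 3 rose and none fell (10.7% called, against 5.67% over all genes). Pdk4, the kinase that switches off pyruvate dehydrogenase, gave 4064, 3862 and 6754 at 2 hours and 1623, 735 and 1139.7 at 0 hours (log2 difference 2.09 ± 0.34, adjusted p = 0.00271). Fkbp5, a co-chaperone of steroid hormone receptors, gave 2442, 2165 and 3345 at 2 hours and 1255, 870.5 and 539.9 at 0 hours (log2 difference 1.64 ± 0.27, adjusted p = 0.00285), and both genes were firm. Sgk1, a kinase that controls ion transport, gave 2335, 2327 and 2723 at 2 hours and 1220.5, 1444 and 620.3 at 0 hours (log2 difference 1.25 ± 0.27, adjusted p = 0.0169) and lost its call without 2 hours array 3 (adjusted p up to 0.0782).

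The other signalling lists moved little. Smad1, which carries BMP signals, was the single call among 20 TGF-beta and BMP genes (log2 difference 0.98 ± 0.23, adjusted p = 0.0227). Of 26 genes on the Wnt, Notch and Hedgehog list, Ccn2, a matricellular protein (log2 difference 1.74 ± 0.37, adjusted p = 0.0138), and Ctnna1, the catenin that ties cadherins to actin (log2 difference 0.82 ± 0.23, adjusted p = 0.0472), rose. The list of small GTPases and Src-family signalling held 38 tested genes (7.89% called, against 5.67% over all genes). Of these the phosphatase Ptpn1 and Rhob (log2 difference 1.02 ± 0.27, adjusted p = 0.0391) rose and Rhoc fell (log2 difference -0.89 ± 0.21, adjusted p = 0.0243). The other probe set for Rhoc differed by 0.07, in the opposite direction. Gnb2, a G protein beta subunit, was the single call among 42 G protein and calcium genes (log2 difference -0.80 ± 0.21, adjusted p = 0.0364). Of 37 cell death and growth arrest genes the ESCRT adaptor Pdcd6ip (log2 difference 0.74 ± 0.17, adjusted p = 0.0218) and the non-coding RNA Gas5 (log2 difference 0.98 ± 0.24, adjusted p = 0.0269) rose.

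Of these, Smad1 lost its call without 2 hours array 2 or 3 or 0 hours array 1 or 3 (adjusted p up to 0.0816). Ccn2 lost it without 2 hours array 1 or 3 or 0 hours array 3 (adjusted p up to 0.0731). Ctnna1 lost it without 2 hours array 1, 2 or 3 or 0 hours array 1 or 3 (adjusted p up to 0.131). Rhob lost it without 2 hours array 1, 2 or 3 or 0 hours array 2 or 3 (adjusted p up to 0.132). Rhoc lost it without 2 hours array 1, 2 or 3 or 0 hours array 1 or 3 (adjusted p up to 0.0826). Gnb2 lost it without 2 hours array 1, 2 or 3 or 0 hours array 1, 2 or 3 (adjusted p up to 0.126). Pdcd6ip lost it without 2 hours array 1 or 3 (adjusted p up to 0.11). Gas5 lost it without 2 hours array 1, 2 or 3 or 0 hours array 1 or 3 (adjusted p up to 0.119). Of the 21 calls of the signalling lists, which leave out Map3k6, 12 were lost when the Gapdh ratio was added to the fit. With the muscle marker mean 6 were lost, and with the actin ratio all 21.

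Several of the largest rises lay outside these families. Plet1, a surface protein of epithelia, gave 1477, 1415 and 2412 at 2 hours and 309, 548 and 397 at 0 hours (log2 difference 2.08 ± 0.28, adjusted p = 0.00082). Plac8, a small cysteine-rich protein, gave 3289, 3202 and 4047 at 2 hours and 970.0, 1014 and 846 at 0 hours (log2 difference 1.89 ± 0.20, adjusted p = 5.36e-05). Sprr1a, a building block of the cornified envelope, gave 6086, 7149 and 5481 at 2 hours and 1059.8, 2355 and 2548 at 0 hours (log2 difference 1.74 ± 0.32, adjusted p = 0.00543). These 3 were firm, and in each the lowest 2 hours array was above the highest 0 hours array.

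Ifrd1, a transcriptional co-regulator, gave 672, 895 and 715 at 2 hours and 196, 212 and 197 at 0 hours. All 3 arrays at 0 hours were under the floor, so it was at least 3.35-fold higher at 2 hours (adjusted p = 0.00271, firm). Wdr92, a WD-repeat protein, gave 22636, 25535 and 27681 at 2 hours and 4962, 4271 and 5494 at 0 hours (log2 difference 2.37 ± 0.34, adjusted p = 0.00119, firm). The metallothioneins Mt1 (log2 difference 3.13 ± 0.23, adjusted p = 1.86e-06) and Mt2 (log2 difference 2.35 ± 0.20, adjusted p = 9.34e-06), which bind zinc and copper, were firm too. Another 4 genes among the largest rises were not firm.

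Ccl2 and Ccl7, which attract monocytes, were among them. Ccl2 gave 2029.7, 2780.2 and 1125 at 2 hours and 496, 207 and 527 at 0 hours (log2 difference 2.25 ± 0.60, adjusted p = 0.0423) and Ccl7 gave 1452, 1047 and 997 at 2 hours and 176, 154 and 567 at 0 hours (log2 difference 1.91 ± 0.42, adjusted p = 0.0184). Ptx3, a secreted pattern-recognition protein, gave 869.5, 1567 and 485 at 2 hours and 115, 20.4 and 266 at 0 hours (log2 difference 1.87 ± 0.52, adjusted p = 0.0476), and Nnat, neuronatin, gave 746, 1327 and 1831 at 2 hours and 705, 207 and 228 at 0 hours (log2 difference 1.88 ± 0.44, adjusted p = 0.0227). All 4 had at least 1 of the 0 hours arrays under the floor. Ccl2 lost its call without 2 hours array 1, 2 or 3 or 0 hours array 1, 2 or 3 (adjusted p up to 0.143). Ccl7 lost it without 2 hours array 1 or 3 or 0 hours array 1 (adjusted p up to 0.0698). Ptx3 lost it without 2 hours array 1 or 2 or 0 hours array 1, 2 or 3 (adjusted p up to 0.177). Nnat lost it without 2 hours array 2 or 3 or 0 hours array 2 or 3 (adjusted p up to 0.112).

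Promoters of the tested genes were searched for 9 short motifs, from 250 bases before to 50 after the start site, in RefSeq sequences of build GRCm38.p6 on both strands. Of the 2830 tested genes with such a sequence, 115 were called up and 46 down. A gene held a motif when the promoter of any of its start sites did. Genes with several start sites thus had more chances to match. A glucocorticoid response element, with the letters GNACA and TGTNC set 3 bases apart, lay in 12 of the 2830 (0.424%), in 4 of the 115 that rose (3.48%: Map3k6, Slc10a6, Mt1 and Sgk1) and in none of the 46 that fell. A heat shock element, with GAA, TTC and GAA set 2 bases apart, lay in 22 (0.777%), in 4 that rose (3.48%: Hspd1, Hspe1, Nnat and Hsph1) and in none that fell. Hspd1 (chr1:55077833-55088243) and Hspe1 (chr1:55088148-55091317) overlap at 1 end, so the same element may be counted for both, which was not tested. The AP-1 motif TGANTCA lay in 213 (7.53%), in 15 that rose (13.0%) and in 2 that fell (4.35%). The cyclic AMP response element TGACGTCA lay in 102 (3.6%), in 4 that rose (3.48%) and in 2 that fell (4.35%). For the remaining 5 motifs only the shares are given. The E-box CACGTG lay in 12.9% of all 2830 genes, 19.1% of those that rose and 8.7% of those that fell. The antioxidant element TGACNNNGC lay in 17.2%, 23.5% and 17.4% in that order. The EGR motif GCGNGGGCG lay in 13.0%, 11.3% and 13.0% in the same order, the Sp1 motif GGGCGG, which can share bases with it, in 70.7%, 67.0% and 82.6%, and the CArG box in 2.05%, 3.48% and 2.17%. These are matches of letters, and binding was not measured.

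The promoters below are shown because their genes rose at 2 hours and hold one of these motifs, printed in capitals. Slc10a6, a transporter of sulphated steroids, was named after its values were seen; it gave 648, 849 and 888 at 2 hours and 392, 211 and 360.5 at 0 hours (log2 difference 1.31 ± 0.23, adjusted p = 0.00327, firm). Map3k6 lies on the plus strand at chr4:133240568-133240867, Sgk1 on the plus strand at chr10:21993640-21993939 (1 of 6 start sites in the table) and Slc10a6 on the minus strand at chr5:103629354-103629653, each with the glucocorticoid motif. Errfi1 lies on the plus strand at chr4:150854820-150855119 (1 of 2 start sites) with the cyclic AMP motif, and Plet1 on the plus strand at chr9:50494275-50494574 and Osmr on the minus strand at chr15:6874264-6874563 with the AP-1 motif. Each is read 5′ to 3′ on the gene's strand.
Map3k6: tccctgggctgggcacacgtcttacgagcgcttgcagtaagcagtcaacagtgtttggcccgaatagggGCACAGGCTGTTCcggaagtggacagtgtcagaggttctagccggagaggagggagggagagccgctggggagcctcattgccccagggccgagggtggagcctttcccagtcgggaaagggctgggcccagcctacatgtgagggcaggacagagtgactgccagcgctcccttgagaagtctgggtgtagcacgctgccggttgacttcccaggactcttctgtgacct
Sgk1: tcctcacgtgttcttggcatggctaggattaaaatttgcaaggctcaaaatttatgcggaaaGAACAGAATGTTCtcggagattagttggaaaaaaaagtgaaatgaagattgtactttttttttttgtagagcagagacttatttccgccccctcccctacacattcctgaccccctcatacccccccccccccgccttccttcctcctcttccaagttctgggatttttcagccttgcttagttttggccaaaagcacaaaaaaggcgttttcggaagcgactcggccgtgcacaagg
Slc10a6: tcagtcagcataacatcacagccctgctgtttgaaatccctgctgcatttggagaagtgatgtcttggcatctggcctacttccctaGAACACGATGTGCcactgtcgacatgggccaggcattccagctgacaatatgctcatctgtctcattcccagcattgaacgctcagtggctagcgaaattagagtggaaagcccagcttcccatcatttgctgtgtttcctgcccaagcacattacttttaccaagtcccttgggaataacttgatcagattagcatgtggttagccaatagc
Errfi1: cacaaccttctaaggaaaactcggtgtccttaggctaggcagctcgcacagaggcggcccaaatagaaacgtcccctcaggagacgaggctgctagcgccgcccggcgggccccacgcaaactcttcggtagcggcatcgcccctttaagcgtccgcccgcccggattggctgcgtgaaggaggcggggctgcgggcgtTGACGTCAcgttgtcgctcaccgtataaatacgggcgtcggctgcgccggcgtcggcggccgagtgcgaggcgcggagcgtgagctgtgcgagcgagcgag
Plet1: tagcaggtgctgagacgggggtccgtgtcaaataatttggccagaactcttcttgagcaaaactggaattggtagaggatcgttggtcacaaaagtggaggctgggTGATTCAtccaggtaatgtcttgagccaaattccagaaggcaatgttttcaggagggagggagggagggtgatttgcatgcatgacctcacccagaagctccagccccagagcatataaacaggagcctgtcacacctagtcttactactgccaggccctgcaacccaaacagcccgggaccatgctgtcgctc
Osmr: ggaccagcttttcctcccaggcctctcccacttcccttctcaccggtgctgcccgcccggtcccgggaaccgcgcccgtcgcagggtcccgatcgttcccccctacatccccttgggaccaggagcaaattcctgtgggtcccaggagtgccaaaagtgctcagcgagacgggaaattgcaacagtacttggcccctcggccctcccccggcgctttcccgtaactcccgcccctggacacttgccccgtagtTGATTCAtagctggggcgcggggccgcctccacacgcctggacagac
Counted from the first base printed, the capitals start at base 70 in Map3k6, 63 in Sgk1, 88 in Slc10a6, 200 in Errfi1, 107 in Plet1 and 254 in Osmr, where the gene's start is base 251.

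Of 24 tested nucleolar genes, which serve to make ribosomes, 6 rose, where 4.0% were called up over all genes. None fell, and the median was 0.45. Gar1, a protein of the particles that guide pseudouridylation of ribosomal RNA, gave 1856, 1974 and 2499.9 at 2 hours and 699, 765 and 1008 at 0 hours (log2 difference 1.36 ± 0.21, adjusted p = 0.00206). Nop56, of the particles that guide its methylation, gave 1098, 759 and 1151 at 2 hours and 340.0, 533 and 339 at 0 hours (log2 difference 1.32 ± 0.22, adjusted p = 0.00285). Both were firm and did not overlap. Tsr1, needed to mature the small subunit, differed by 1.09 (adjusted p = 0.0138), Wdr43, a factor of the pre-ribosome, by 1.13 (adjusted p = 0.0178), and Gnl3, or nucleostemin, by 0.94 (adjusted p = 0.0176). The sixth was Npm1.

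None of 22 tested genes for the proteins of the ribosome itself was called by limma. At an unadjusted p under 0.05, 6 of them were higher, against 486 of 3477 over all genes. Of the 22, 21 were higher at 2 hours and 1 lower, with a median of 0.28 and the smallest p-values in Rpl22 (log2 difference 0.80 ± 0.25, adjusted p = 0.0785) and Rps4x (log2 difference 0.58 ± 0.19, adjusted p = 0.0823). Among 50 translation factors and tRNA synthetases 4 rose and none fell (8.0% called, against 5.67% over all genes), with a median of 0.22. Ppp1r15b, which directs a phosphatase to the initiation factor eIF2, gave 1109, 878 and 1106 at 2 hours and 534, 634 and 387 at 0 hours (log2 difference 1.01 ± 0.22, adjusted p = 0.0171). The other 3 were initiation factor genes, Eif3a (0.89, adjusted p = 0.0245), Eif1a (0.87, adjusted p = 0.0249) and Eif2s3x (0.82, adjusted p = 0.0396).

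Splicing factors moved in both directions. Of 38 hnRNP and SR genes 4 rose and 2 fell (15.8% called, against 5.67% over all genes), with 31 higher and 7 lower whether called or not and a median of 0.39. The list averaged a log2 signal of 10.19, 10.20 and 10.26 on the 2 hours arrays and 9.88, 10.29 and 9.85 on the 0 hours arrays. On 0 hours array 2 it was thus above every 2 hours array. Hnrnpl, a repressor and activator of exons, had the largest firm fall of all genes and gave 241, 180.0 and 92.1 at 2 hours and 841, 1335 and 1045 at 0 hours (log2 difference -2.19 ± 0.33, adjusted p = 0.00162). Since 2 of its 2 hours arrays lay under the floor, that difference is a lower bound. Cirbp, an RNA-binding protein induced by cold, gave 538, 786 and 541 at 2 hours and 848, 1054 and 1420.0 at 0 hours (log2 difference -0.82 ± 0.22, adjusted p = 0.0413) and was lower at 2 hours.

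The rises in that list were Rbmxl1 (log2 difference 0.98 ± 0.18, adjusted p = 0.00485, firm), Hnrnpk (log2 difference 0.79 ± 0.18, adjusted p = 0.0218), Sfpq (log2 difference 0.65 ± 0.16, adjusted p = 0.0328) and Qk (log2 difference 0.80 ± 0.21, adjusted p = 0.0378). Rbmxl1 is a near copy of Rbmx, so its probe set may read both. Every 0 hours array lay under the floor for Sfpq, and its other 3 probe sets never left the floor on the 6 arrays. The other probe set for Qk differed by 0.23. Of 41 spliceosome and helicase genes 3 rose and none fell (7.32% called, against 5.67% over all genes). They were the helicase Ddx3x (log2 difference 1.63 ± 0.40, adjusted p = 0.0279), Rnps1 of the exon junction complex (log2 difference 1.41 ± 0.37, adjusted p = 0.0383) and Sf3b1 of the U2 particle (log2 difference 0.95 ± 0.22, adjusted p = 0.0218). The other probe sets for Ddx3x and Sf3b1 differed by 1.24 and 0.87.

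limma called no gene among 27 for mRNA ends, export and decay, with 2 higher at an unadjusted p under 0.05 (486 of 3477 over all genes). Pabpc1, the poly(A)-binding protein, came nearest, with 4622, 4823 and 4863 at 2 hours and 3176, 3579 and 2005 at 0 hours (log2 difference 0.75 ± 0.21, adjusted p = 0.0514). Of the 19 calls of the RNA lists, Gar1, Nop56, Hnrnpl and Rbmxl1 were firm. The other 15 were lost without 1 or more arrays: 13, 10 and 15 of the 19 without 2 hours array 1, 2 or 3, and 9, 1 and 12 without 0 hours array 1, 2 or 3, with adjusted p up to 0.163. Adding the Gapdh ratio to the fit ended 13 of the 19, the muscle marker mean 12 and the actin ratio all 19.

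Lipid synthesis held 2 firm falls. Of 25 tested genes for fatty acid and sterol synthesis 4 fell and none rose (1.67% were called down over all genes), with 17 lower and 8 higher whether called or not and a median of -0.38. Scd2, a desaturase that makes monounsaturated fatty acids, gave 1165, 1204 and 1196 at 2 hours and 3253, 2451 and 3645 at 0 hours (log2 difference -1.37 ± 0.19, adjusted p = 0.00101), and its other probe set differed by -1.71. Acly, which makes acetyl-CoA from citrate for lipid synthesis, gave 2109, 1864 and 2368 at 2 hours and 5626, 3576 and 4514 at 0 hours (log2 difference -1.10 ± 0.21, adjusted p = 0.00875). Both falls were firm and the groups did not overlap.

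Nsdhl and Tm7sf2, enzymes late in cholesterol synthesis, were the other two. Nsdhl gave 261, 495 and 255 at 2 hours and 637, 579.7 and 776 at 0 hours (log2 difference -1.04 ± 0.24, adjusted p = 0.0227) and lost its call without 2 hours array 1 or 3 or 0 hours array 3 (adjusted p up to 0.112); its 2 other probe sets differed by -0.08 and -0.31. Tm7sf2 differed by -0.80 (adjusted p = 0.0477) and lost its call without 2 hours array 1, 2 or 3 or 0 hours array 1 or 3 (adjusted p up to 0.167). With the Gapdh ratio or the muscle marker mean in the fit Nsdhl and Tm7sf2 were lost (adjusted p up to 0.125 and 0.0782) and Scd2 and Acly kept. With the actin ratio all 4 were lost, and Scd2 differed by -1.33 (adjusted p = 0.0678). Erg28, a scaffold of sterol synthesis enzymes that was not on the list, gave 317, 422 and 289.9 at 2 hours and 546, 869 and 743 at 0 hours (log2 difference -1.06 ± 0.22, adjusted p = 0.0122) and lost its call without 2 hours array 1 or 3 (adjusted p up to 0.0731).

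Pcyt2, the rate-setting enzyme for phosphatidylethanolamine, gave 489, 531 and 547 at 2 hours and 1483, 1452 and 1639.6 at 0 hours (log2 difference -1.55 ± 0.20, adjusted p = 0.000562), a firm fall. In the same list of 31 phospholipid and sphingolipid genes Sphk1 and Ugcg, which make sphingosine phosphate and glucosylceramide, rose (0.78 and 1.05, adjusted p = 0.0372 and 0.0405). Sphk1 lost its call without 2 hours array 1, 2 or 3 or 0 hours array 1 or 3 (adjusted p up to 0.16). Ugcg lost it without 2 hours array 1, 2 or 3 or 0 hours array 1 or 3 (adjusted p up to 0.136).

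Of 44 genes for fatty acid oxidation and lipid handling 2 rose and none fell (4.55% called, against 5.67% over all genes). Eci2, an isomerase that lets unsaturated fatty acids be oxidised, gave 1216, 1321 and 1605 at 2 hours and 676, 559 and 553 at 0 hours (log2 difference 1.21 ± 0.18, adjusted p = 0.00146, firm). Ucp3, a mitochondrial carrier, gave 729, 782 and 931 at 2 hours and 475, 252 and 319 at 0 hours (log2 difference 1.27 ± 0.26, adjusted p = 0.0109) and lost its call without 2 hours array 3 (adjusted p up to 0.0658). Among 29 glycolysis and glycogen genes Pdk4 rose and Gys1, glycogen synthase of muscle and other tissues, fell (log2 difference -0.81 ± 0.21, adjusted p = 0.0388); the Gys1 call was lost without 2 hours array 1, 2 or 3 or 0 hours array 1 (adjusted p up to 0.153), and also once the muscle marker mean was added to the fit (-0.49, adjusted p = 0.134).

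None of 60 respiratory chain and citric acid cycle genes was called by limma, with 2 lower at an unadjusted p under 0.05, a median of -0.06 and the smallest p-value in Ndufa2 (log2 difference -0.47 ± 0.18, adjusted p = 0.14). Elsewhere in metabolism Azin1, which raises polyamine synthesis, rose (log2 difference 1.24 ± 0.25, adjusted p = 0.0109), as did the nucleotide genes Nampt (log2 difference 0.87 ± 0.24, adjusted p = 0.0454) and Pnp (log2 difference 0.84 ± 0.23, adjusted p = 0.0454). Azin1 lost its call without 2 hours array 3 (adjusted p up to 0.0666), Nampt without 2 hours array 2 or 3 or 0 hours array 2 or 3 (adjusted p up to 0.168) and Pnp without 2 hours array 1, 2 or 3 or 0 hours array 3 (adjusted p up to 0.155); without 0 hours array 3 the Pnp difference was 0.56, adjusted p = 0.123.

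Of 51 antioxidant, glutathione and detoxification genes 4 rose and 1 fell. Besides Mt1 and Mt2 the rises were Hmox1, haem oxygenase (log2 difference 1.47 ± 0.22, adjusted p = 0.00146, firm), and Cyp4b1, a cytochrome P450 (log2 difference 1.21 ± 0.28, adjusted p = 0.0213). The fall was Pgd, an enzyme of the pentose phosphate route, which gave 978, 988 and 1209 at 2 hours and 3714, 1749 and 1609 at 0 hours (log2 difference -1.05 ± 0.27, adjusted p = 0.0367), with 0 hours array 1 far above the rest. Without that array the difference was -0.67, adjusted p = 0.0865; the call was lost without 2 hours array 1, 2 or 3 or 0 hours array 1 (adjusted p up to 0.107), and that of Cyp4b1 without 2 hours array 2 or 3 or 0 hours array 3 (adjusted p up to 0.0881). Of the 19 calls of the metabolic lists 8 were lost with the Gapdh ratio, 6 with the muscle marker mean and 16 with the actin ratio.

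The heat shock and chaperone list held 11 rises and no fall among 40 tested (27.5% called, against 5.67% over all genes), with a median of 0.44. Hspa1a, the inducible Hsp70, differed by 4.09 (adjusted p = 4.88e-07). limma called no gene among 39 for folding and stress in the endoplasmic reticulum. At an unadjusted p under 0.05, 4 were higher and 4 lower, against 486 and 289 of 3477 over all genes. Ppp1r15a came nearest (log2 difference 0.69 ± 0.20, adjusted p = 0.06). Of 106 proteasome, ubiquitin and autophagy genes 1 rose and 2 fell (2.83% called, against 5.67% over all genes). Psme3, the nuclear activator of the proteasome, gave 871, 1005 and 1156 at 2 hours and 481, 298 and 377 at 0 hours (log2 difference 1.41 ± 0.25, adjusted p = 0.00419, firm). Ctsk, a collagen-cutting cathepsin, gave 1285, 1227 and 1185 at 2 hours and 3119.6, 2894 and 2895 at 0 hours (log2 difference -1.27 ± 0.19, adjusted p = 0.00158, firm), and Usp5, a deubiquitinase, differed by -0.69 (adjusted p = 0.0423), a call lost without 2 hours array 1, 2 or 3 or 0 hours array 1 or 3 (adjusted p up to 0.132).

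Of 87 vesicle, Golgi and glycosylation genes 2 rose and 4 fell (6.9% called, against 5.67% over all genes). Kdelr3, a receptor that returns proteins to the endoplasmic reticulum, gave 368, 353 and 277 at 2 hours and 952, 1058 and 1005 at 0 hours (log2 difference -1.60 ± 0.30, adjusted p = 0.00677) and was the firm one. The other falls were the clathrin adaptor Ap2a2 (log2 difference -0.89 ± 0.20, adjusted p = 0.0213), the syntaxin Stx2 (log2 difference -0.83 ± 0.20, adjusted p = 0.0238) and the dynamin Dnm1 (log2 difference -0.68 ± 0.19, adjusted p = 0.0469), and the rises were Cav1, of caveolae (log2 difference 1.22 ± 0.28, adjusted p = 0.0208), and the GTPase Arf4 (log2 difference 0.95 ± 0.23, adjusted p = 0.0256). Ap2a2 lost its call without 2 hours array 2 or 3 or 0 hours array 1 (adjusted p up to 0.0952). Stx2 lost it without 2 hours array 1, 2 or 3 or 0 hours array 1 (adjusted p up to 0.0885), Dnm1 without 2 hours array 1, 2 or 3 or 0 hours array 1, 2 or 3 (adjusted p up to 0.147). Cav1 lost it without 2 hours array 2 or 3 or 0 hours array 3 (adjusted p up to 0.0888). Arf4 lost it without 2 hours array 1 or 2 or 0 hours array 1 or 3 (adjusted p up to 0.106). Of the 20 calls of the chaperone, proteasome and vesicle lists 4 were lost with the Gapdh ratio, 7 with the muscle marker mean and 16 with the actin ratio.

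**Figure D3:**
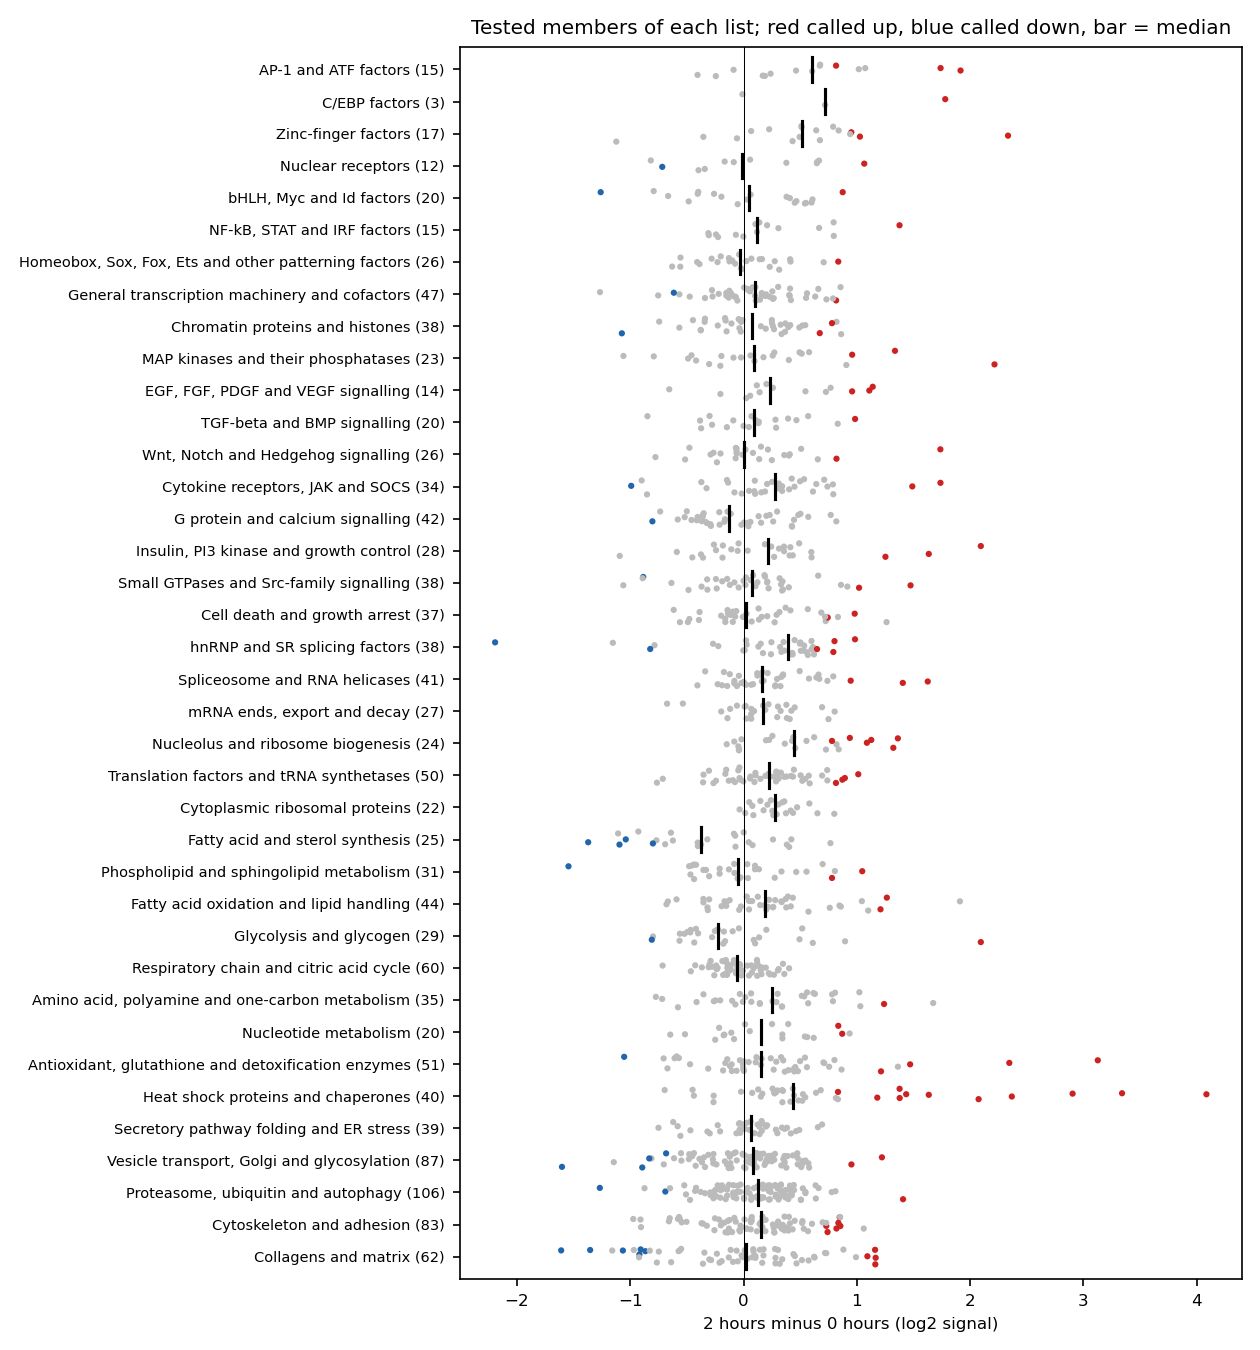
Each row is 1 gene list with the number of its tested genes in brackets, and each dot is 1 gene placed by its 2 hours minus 0 hours log2 difference (x axis); red was called up, blue called down, grey not called, and the black bar is the list's median. The nucleolar list has 6 red dots among 24 genes and a median of 0.45, and the fatty acid and sterol list has 4 blue dots among 25 and a median of -0.38.

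Further early falls came from genes of varied roles. Ppp2r5d, a regulatory subunit of phosphatase PP2A, gave 71.5, 102 and 233 at 2 hours and 621, 589 and 697 at 0 hours (log2 difference -1.48 ± 0.20, adjusted p = 0.00082). Jkamp, a membrane protein that binds the kinase JNK, gave 278, 289 and 209 at 2 hours and 794, 526 and 862 at 0 hours (log2 difference -1.44 ± 0.24, adjusted p = 0.00271). Ift20, a carrier of ciliary cargo, gave 256, 232 and 167 at 2 hours and 585, 722 and 535 at 0 hours (log2 difference -1.36 ± 0.18, adjusted p = 0.000765). All 3 were firm with no overlap, and each had 1 or 2 of its 2 hours arrays under the floor, so the sizes are lower bounds.

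Plxnd1, a semaphorin receptor, gave 542, 376 and 548 at 2 hours and 1218, 1112 and 1040.0 at 0 hours (log2 difference -1.22 ± 0.20, adjusted p = 0.00267, firm). Slc38a10, an amino acid transporter, gave 926, 737 and 880.5 at 2 hours and 1552, 2147 and 1606 at 0 hours (log2 difference -1.05 ± 0.21, adjusted p = 0.00875, firm). Pdlim7, an adaptor on actin filaments, gave 798, 716 and 478 at 2 hours and 2854, 1497 and 1504 at 0 hours (log2 difference -1.52 ± 0.27, adjusted p = 0.00419, firm), but its other probe set was at the floor on 5 of 6 arrays. Sema6c, a semaphorin, and Csnk1g2, a casein kinase, completed the set. Sema6c differed by -1.10 (adjusted p = 0.0218) and lost its call without 2 hours array 2 or 3 or 0 hours array 1 (adjusted p up to 0.0943), and Csnk1g2 differed by -1.06 (adjusted p = 0.012) and lost it without 2 hours array 3 (adjusted p up to 0.0696).

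**Figure D4:**
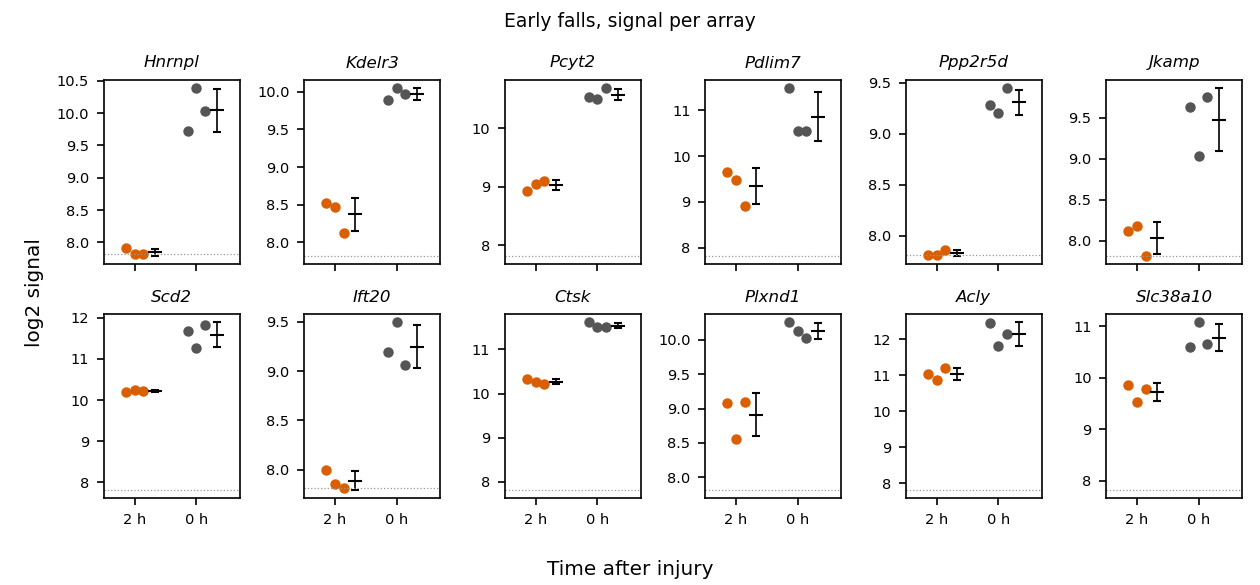
Log2 signal on each array (y axis) at 2 hours and at 0 hours (x axis) for 12 firm early falls; dots are arrays, bars are the mean and SD of 3 arrays, and the dotted line is the floor. The 2 times do not overlap in any panel, and Hnrnpl, Ppp2r5d, Jkamp and Ift20 reach the floor at 2 hours.

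Tissue structure and cell type markers moved as follows. Of 62 collagens and matrix genes 4 rose and 6 fell (16.1% called, against 5.67% over all genes). Col1a2, a chain of collagen I, gave 11591, 10884 and 10511 at 2 hours and 36884, 31068 and 32919 at 0 hours (log2 difference -1.61 ± 0.19, adjusted p = 0.000343, firm), while its other probe set differed by -0.28. Of the 10 matrix calls 4 were firm. Without 2 hours array 1, 2 or 3, 5, 5 and 5 were lost, and 3, 0 and 5 without 0 hours array 1, 2 or 3 (adjusted p up to 0.123). With the Gapdh ratio 2 of the 10 were lost, 2 with the muscle marker mean and all 10 with the actin ratio. Of 83 cytoskeleton and adhesion genes 6 rose and none fell (7.23% called, against 5.67% over all genes). They were Tmsb4x (0.84), which binds free actin, Actr3 (0.85), which nucleates its branches, Ezr (0.73), Ctnna1, Tpm4 (0.74) and Vcl (0.85), with adjusted p from 0.0171 to 0.0486. None of those 6 was firm: 5, 6 and 6 were lost without 2 hours array 1, 2 or 3, and 6, 0 and 5 without 0 hours array 1, 2 or 3 (adjusted p up to 0.186). All 6 were also lost once the Gapdh ratio, the muscle marker mean or the actin ratio was added to the fit.

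Of 33 skeletal muscle markers 3 fell and none rose, with 30 lower and 3 higher whether called or not and a median of -0.43. They were the troponins of slow fibres Tnnt1 (log2 difference -2.35 ± 0.63, adjusted p = 0.043) and Tnni1 (log2 difference -1.98 ± 0.52, adjusted p = 0.0396) and the calcium channel subunit Cacng1 (log2 difference -0.68 ± 0.19, adjusted p = 0.0461). Tnnt1 gave 446, 80.8 and 57.4 at 2 hours and 6169, 1003 and 486 at 0 hours, with 0 hours array 1 far above the other two, and its other probe set differed by -0.57. Tnnt1 lost its call without 2 hours array 1, 2 or 3 or 0 hours array 1 (adjusted p up to 0.158). Tnni1 lost it without 2 hours array 1, 2 or 3 or 0 hours array 1 (adjusted p up to 0.11). Cacng1 lost it without 2 hours array 1, 2 or 3 or 0 hours array 1, 2 or 3 (adjusted p up to 0.169). Muscle markers were highest on 0 hours array 1, and without it Tnnt1 differed by -1.30, adjusted p = 0.0574 and Tnni1 by -1.22, adjusted p = 0.0878. The Gapdh ratio in the fit ended the Cacng1 call, and the actin ratio ended all 3. The muscle marker mean also ended all 3, but these genes are part of that mean, so this loss decides nothing about them. Of 12 hair follicle markers 2 fell and none rose. Krt71, a keratin of the inner root sheath, gave 168, 49.6 and 34 at 2 hours and 313, 1886 and 1283 at 0 hours (log2 difference -2.02 ± 0.48, adjusted p = 0.0245), and S100a3, a hair cuticle protein, gave 201, 278 and 322 at 2 hours and 432, 1251 and 887 at 0 hours (log2 difference -1.52 ± 0.41, adjusted p = 0.0419). At 2 hours all Krt71 signals lay under the floor, at least 4.05-fold lower than at 0 hours. Krt71 lost its call without 2 hours array 1, 2 or 3 or 0 hours array 2 or 3 (adjusted p up to 0.102). S100a3 lost it without 2 hours array 1, 2 or 3 or 0 hours array 2 or 3 (adjusted p up to 0.122). Both were lost with the Gapdh ratio (adjusted p up to 0.157) and with the actin ratio (up to 0.198), and S100a3 with the muscle marker mean (adjusted p = 0.0843); its other probe set was at the floor on 5 of 6 arrays.

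Epidermal keratinocyte markers held 3 rises and no fall among 25, with Krt6a, a keratin of activated epidermis, at 1.67 (adjusted p = 0.0159), Col17a1, an anchoring collagen, at 1.16 (adjusted p = 0.0118) and Sprr1a. Krt6a lost its call without 2 hours array 1 or 3 or 0 hours array 1 (adjusted p up to 0.0658). Col17a1 lost it without 2 hours array 3 (adjusted p up to 0.0693). The Gapdh ratio ended none of the 3, the muscle marker mean ended Krt6a and the actin ratio ended all 3. Of 19 macrophage and monocyte markers Lgals3 was called (log2 difference 0.78 ± 0.20, adjusted p = 0.0385), with 3 higher and 1 lower at an unadjusted p under 0.05. Whether called or not, 9 of the 19 were higher and 10 lower, with a median of -0.002. Of 5 lymphocyte and mast cell markers the mast cell protease Cma1 was called (log2 difference 0.73 ± 0.20, adjusted p = 0.0446), with 4 higher at an unadjusted p under 0.05. limma called none of 4 neutrophil markers (0 at an unadjusted p under 0.05). Lgals3 lost its call without 2 hours array 1, 2 or 3 or 0 hours array 1 or 3 (adjusted p up to 0.112). Cma1 lost it without 2 hours array 1, 2 or 3 or 0 hours array 1 or 3 (adjusted p up to 0.136). Both were also lost with each of the 3 covariates. The 4 neutrophil markers averaged a log2 signal of 8.61, 9.94 and 9.43 on the 2 hours arrays and 8.69, 8.71 and 8.83 on the 0 hours arrays, so 2 of 3 arrays at 2 hours stood above all of those at 0 hours. None of 12 adipocyte markers was called by limma, with 2 higher at an unadjusted p under 0.05 (486 of 3477 over all genes). Cidec, a lipid droplet protein, came nearest (log2 difference 1.91 ± 0.54, adjusted p = 0.052). Of 19 fibroblast markers 4 fell, all of them matrix genes counted above, and none rose. Whether called or not, 10 of these 19 were higher and 9 lower, with a median of 0.01. None of 4 endothelial, 3 melanocyte and 2 red blood cell markers was called, with 1 red blood cell marker higher at an unadjusted p under 0.05.

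At the later times the firm rises differed in how long they lasted. The values in this paragraph compare later arrays with the same 2 hours arrays on which the genes were called, so genes that were high or low there are biased towards a difference, and the counts over all genes were 327 called at 3 days against 2 hours (9.4%; 6.1% up and 3.31% down) and 427 at 14 days against 2 hours (12.3%; 6.84% up and 5.44% down). Pdk4 had mean log2 signals of 10.11, 12.21, 9.05 and 9.53 at 0 hours, 2 hours, 3 days and 14 days, and was lower at 3 days than at 2 hours (-3.16, adjusted p = 7.89e-05). Zbtb16 (-1.90, adjusted p = 0.0125), Atf3 (-1.90, adjusted p = 0.00186), Cebpd (-1.31, adjusted p = 0.0104), Errfi1 (-1.70, adjusted p = 0.0111) and Map3k6 (-1.53, adjusted p = 0.00975) were also lower at 3 days than at 2 hours. Plac8 had means of 9.88, 11.77, 12.28 and 10.45 over the 4 times, with no call at 3 days against 2 hours (0.51, adjusted p = 0.125) and a lower level at 14 days (-1.32, adjusted p = 0.00069). Sprr1a had means of 10.86, 12.60, 13.45 and 13.45, and neither later time was called against 2 hours.

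The falls also parted. Scd2 had means of 11.59, 10.21, 11.01 and 11.49 at 0 hours, 2 hours, 3 days and 14 days and was higher at 3 days than at 2 hours (0.79, adjusted p = 0.019). Kdelr3 (1.14, adjusted p = 0.0305) and Plxnd1 (0.94, adjusted p = 0.00919) were also higher at 3 days. Hnrnpl was called higher at 14 days than at 2 hours (1.28, adjusted p = 0.0223) but not at 3 days (0.96, adjusted p = 0.0925). Mxd4 had means of 11.88, 10.62, 10.72 and 11.04, and the difference from 2 hours did not pass at 3 days (0.10, adjusted p = 0.806) or at 14 days (0.43, adjusted p = 0.195). Acly, Pcyt2, Jkamp and Ift20 were likewise not called against 2 hours at either later time.

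**Figure D5:**
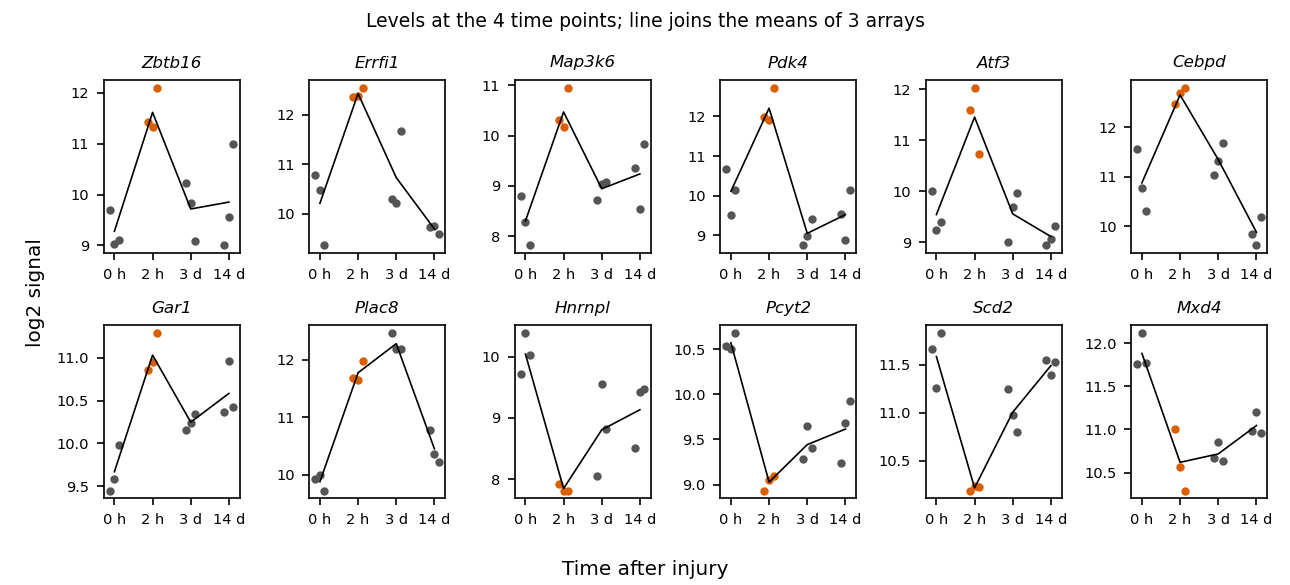
Log2 signal (y axis) at 0 hours, 2 hours, 3 days and 14 days (x axis) for 8 firm rises and 4 firm falls; dots are arrays, with the 2 hours arrays in orange, and the line joins the means of 3 arrays. Pdk4, Zbtb16 and Atf3 peak at 2 hours, Plac8 stays high at 3 days, and Scd2 is lowest at 2 hours.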

How the data were processed

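Total RNA from mouse skin was measured on 12 Affymetrix arrays, 3 for each of 4 times, per the labels. The deposited table holds the authors' intensity values, 1 linear signal per probe set and array; no label names the software, background correction or scaling behind them. Trimmed means (2% off each end) lay within 8.56% of their mean, so no rescaling was applied. Of 7275 probe sets, 6551 named 1 gene (5599 genes), 251 several, 446 none, and 27 were controls, by the platform annotation; 6545 of the 6551 gene IDs were found in the RefSeq table. Signals were raised to a floor at the pooled 25th percentile (225.4) and log2 was taken. A probe set had to exceed the pooled median (475.55) on 3 arrays or more, and each gene was represented by its probe set of highest mean. limma 3.58.1 in R 4.3.3 was fitted to all 12 arrays, 1 coefficient per time, with 8 residual and 6.64 prior degrees of freedom, and tested on simulated data. An exact permutation test of 3 against 3 arrays cannot go below p = 0.1, so overlap is only described. The number of arrays limits the precision.

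The members and the 49 gene lists were chosen with earlier results of these data known. The text names, of the called genes whose groups do not overlap, the top 20 in each direction (heat shock, matrix and muscle lists by their counts and at most 4 members each), plus up to 6 called members of each list, or up to 2 where under 2 were called. Same-numbered arrays at 2 hours and 0 hours deviated from their group means with correlations of -0.10, -0.11 and -0.06, so the numbers were not used as pairs. Alternatives covered scaling, floor, filter, choice of probe set, variance model, array weights, covariates and each array left out; the actin ratio as a covariate was added after seeing the data. Sequences are from RefSeq, build GRCm38.p6.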

Additional observations from a re-analysis of the deposited data

How the results depend on the processing

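The number of called genes, 197 (139 up and 58 down), stayed within 1.5 times under quantile normalization, median scaling, both other floors, no filter, a stricter filter, the probe set with the highest variance, the trended and robust variance model, the muscle covariate and the replicate block. It moved further under 4 other planned settings: array weights gave 119 (84 up, 35 down), a fit on only the 6 arrays gave 63 (48 up, 15 down), the Gapdh ratio as a covariate gave 108 (68 up) and a further limit of 1 in size on the log2 change gave 108 (82 up, 26 down). Leaving out 1 array gave between 72 and 316 called genes, between 53 and 237 up and between 19 and 79 down. The totals hide turnover: 105 of the 153 genes called with the muscle covariate, 97 of the 142 called with no filter and 99 of the 108 called with the Gapdh ratio were among the 197. The actin ratio as a covariate, chosen after seeing the data, gave 10 (9 up, 1 down), with the direction of all 197 unchanged and the median standard error 1.5 times as large. The number was 148 with the replicate block, 144 of them also called without it, and the same-numbered arrays did not deviate together. Of the 197 genes 60 kept their call without any 1 array and 9 under all of the alternatives run. With the probe set of highest variance, Dynll2 differed by -0.12 (limma adjusted p = 0.79) and Rhoc by 0.067 (limma adjusted p = 0.909), each reversed in direction; the cause was not tested. Without the filter 5599 genes were tested and 142 called. Quantile normalization moved the median difference of all genes to 0.01, against 0.05. No alternative changes that each time has 3 arrays, or that signals under the floor carry no order.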

Other observations

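Outside the genes named in the report, probe sets that name several genes or none were tested in a fit of their own. Of 186 tested probe sets that name several genes, limma called 7 higher and 2 lower at 2 hours, and of 215 that name none, 4 higher and 4 lower. The largest difference among those naming several genes was 3.08 ± 0.47 (limma adjusted p = 0.0034) and among those naming none 1.65 ± 0.31 (limma adjusted p = 0.0144).

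Some firm changes were not in any list and were picked out after their values were seen. Fgl2, a fibrinogen-like protein of immune regulation, differed by 1.72 (limma adjusted p = 0.00113), higher at 2 hours on 3 of 3 arrays than on any at 0 hours. Prss23, a secreted serine protease, differed by 1.36 (limma adjusted p = 0.00206), and Emp1, an epithelial membrane protein, by 1.18 (limma adjusted p = 0.00419), again without overlap. Ifi204, an interferon-inducible protein, differed by 1.43 (limma adjusted p = 0.00134), while its other probe set was at the floor on all 6 arrays. Gbp2, an interferon-induced GTPase, differed by 1.60 (limma adjusted p = 0.0178), with signals of 1644, 499.8 and 587 on the 2 hours arrays and 231, 206 and 333 on the 0 hours arrays; without 2 hours array 1 it differed by 1.07 (limma adjusted p = 0.0353). Nans, an enzyme of sialic acid synthesis, differed by -0.84 (limma adjusted p = 0.0105).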
